A study of Mus musculus with 36 samples.

Results

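Bone marrow macrophages from mice lacking the microRNA gene Mir324 were cultured with or without RANK-L, and the difference between those 2 cultures is described here. Its members are 12 of the 36 RNA-seq libraries of the series, chosen by their labels: 6 null OC libraries (replicates 1 to 6, labelled osteoclasts) and 6 null BMM libraries (replicates 1 to 6, labelled bone marrow macrophages). All 12 carry the genotype label Mir324-null, and the mice were 20 weeks old. Marrow flushed from the long bones was first kept for 3 days in M-CSF at 100 ng/mL. The null OC cultures then received M-CSF at 30 ng/mL and RANK-L at 50 ng/mL for 5 days, and the null BMM cultures received M-CSF at 30 ng/mL alone for the same time. Another 12 libraries from wild-type controls, 6 WT OC and 6 WT BMM with the same culture media and times, serve as the reference response. The labels do not say how Mir324 was removed, whether cells of several mice were pooled, or that replicates came from separate mice, so p-values measure the spread between these libraries, which may be technical. The labelled genotype was not checked in these libraries, because the Mir324 transcript is not among the transcripts used here.

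M-CSF keeps macrophages and osteoclast precursors alive through its receptor Csf1r. RANK-L binds RANK (Tnfrsf11a), which signals through Traf6, NF-kB and AP-1 factors to the transcription factor Nfatc1. Nfatc1 and its partners in turn switch on genes for cell fusion, attachment to bone, acid secretion and collagen breakdown, and the macrophages become multinucleated cells that resorb bone. A microRNA acts by pairing its seed with messenger RNAs, which lowers their translation or stability.

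The Mir324 hairpin yields 2 mature microRNAs, shown because they are what the null cells lack by label. Sequences are from RefSeq (GRCm38.p6), both on the plus strand of chromosome 11, at chr11:70012060-70012082 for the 5p arm and chr11:70012095-70012114 for the 3p arm, written 5′ to 3′ with the seed (bases 2 to 8) in capitals.
mmu-miR-324-5p: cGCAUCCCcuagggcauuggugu
mmu-miR-324-3p: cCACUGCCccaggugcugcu

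Of 7 genes whose call held under every planned change of method and library, 6 had a promoter entry in RefSeq, and Itgb3 is named only. The 250 bases before the start site are given for Ctsk and Ccr1, which shared the smallest adjusted p among genes that rose, for Marco, which had the smallest among genes that fell, and for Saa3, an inflammatory gene that is high in null cells and nearly absent from WT cells. Capitals mark matches, on either strand, to 4 short motifs bound by factors of osteoclast and macrophage gene control: TGANTCA (AP-1), GGAAA (the core of an NFAT site), GAGGAA (PU.1) and TCATGTG (MITF). The NFAT and PU.1 letters overlap where GAGGAA is followed by A.
Ctsk (plus strand, chr3:95498960-95499209): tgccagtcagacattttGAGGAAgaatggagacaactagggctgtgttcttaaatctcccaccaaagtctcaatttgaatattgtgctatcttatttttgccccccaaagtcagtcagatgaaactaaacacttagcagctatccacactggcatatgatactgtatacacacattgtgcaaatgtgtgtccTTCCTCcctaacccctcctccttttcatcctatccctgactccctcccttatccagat
Ccr1 (minus strand, chr9:123968693-123968942): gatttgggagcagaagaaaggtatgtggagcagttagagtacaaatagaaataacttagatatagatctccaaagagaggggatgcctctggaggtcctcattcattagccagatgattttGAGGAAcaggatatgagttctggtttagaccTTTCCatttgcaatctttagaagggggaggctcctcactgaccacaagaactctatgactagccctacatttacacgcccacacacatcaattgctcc
Marco (minus strand, chr1:120505025-120505274): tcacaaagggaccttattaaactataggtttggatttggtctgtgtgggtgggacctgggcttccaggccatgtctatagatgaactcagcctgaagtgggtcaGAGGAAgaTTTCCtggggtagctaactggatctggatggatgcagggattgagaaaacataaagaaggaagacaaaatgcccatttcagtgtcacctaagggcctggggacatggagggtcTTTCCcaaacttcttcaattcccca
Saa3 (minus strand, chr7:46715677-46715926): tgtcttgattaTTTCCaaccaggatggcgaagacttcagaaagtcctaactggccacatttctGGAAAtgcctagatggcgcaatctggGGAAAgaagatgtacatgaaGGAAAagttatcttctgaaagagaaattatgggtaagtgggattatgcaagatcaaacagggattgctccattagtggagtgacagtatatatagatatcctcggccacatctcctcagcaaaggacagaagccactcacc
The Ctsk window holds 2 PU.1 matches, the Ccr1 window 1 PU.1 and 1 NFAT match, the Marco window 1 PU.1 and 2 NFAT matches, and the Saa3 window 4 NFAT matches. None of these 4 windows matches the AP-1 or MITF letters. Among 32851 promoter windows of the same 250 bases, 55.6% hold the NFAT letters, 23.3% the PU.1 letters, 6.75% the AP-1 letters and 3.25% the MITF letters. The matches are a description of these letters only.

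Total estimated counts ran from 17605810 to 21709587 in null BMM and from 14118972 to 26347581 in null OC, with null OC 6 the shallowest library. Levels are given as CPM, a gene's counts relative to its library's total after scaling for composition. The biological coefficient of variation, the spread between replicates beyond counting error, was 19.7% in null BMM and 20.8% in null OC (17% without null OC 6), against 11.9% in WT BMM and 9.5% in WT OC. Several null libraries stood apart. On the first principal component of the 12 null libraries (37.1% of variance), null BMM 2, 3 and 4 lay away from the others. In these 3 the mitochondrially encoded genes took 1.13% to 1.18% of counts, against 0.67% to 0.87% in the other 9, and ribosomal protein genes took 1.43% to 1.67% against 0.85% to 1.08%. On the second component (19.1%), null OC 6 lay farthest out, with null OC 3 next to it. A list of 16 osteoblast and stroma genes summed to 320 CPM in null OC 6, against 67.0 to 126 in the other null OC libraries and 63.1 to 145 in null BMM. In bulk RNA, fewer cells of a type and less RNA per cell cannot be told apart.

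**Figure D1:**
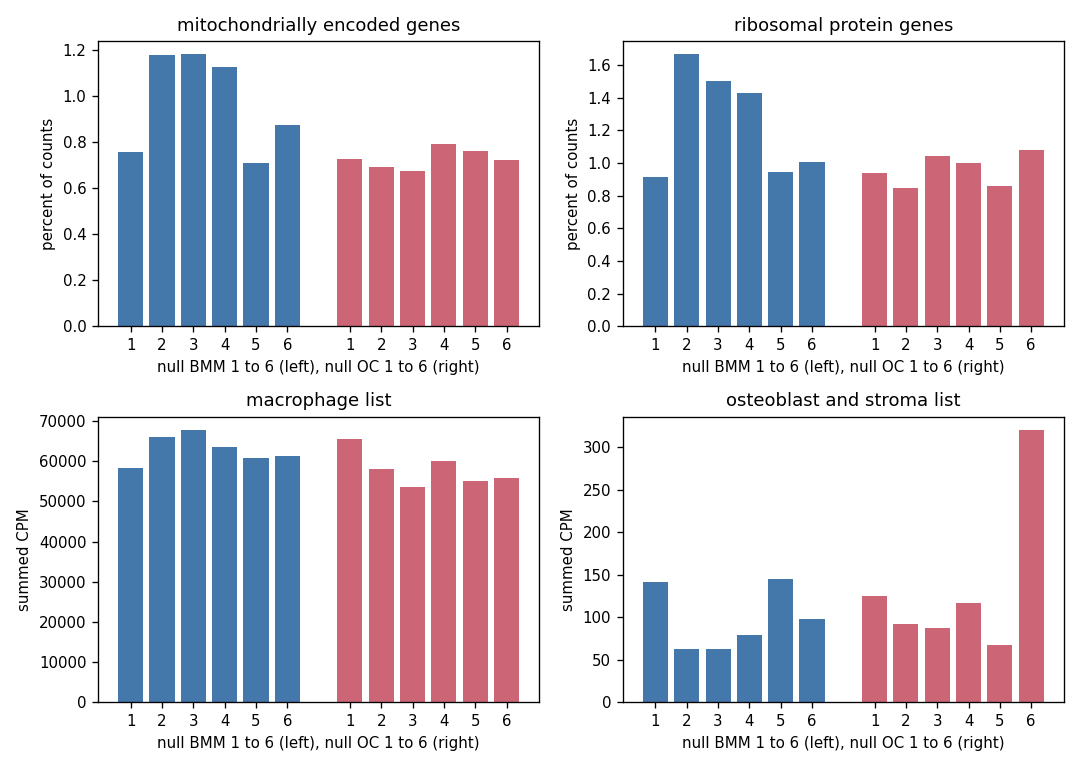
Bars give, for each null library, the percent of counts from mitochondrially encoded and ribosomal protein genes and the summed CPM of the macrophage and the osteoblast and stroma lists, with null BMM 1 to 6 in blue and null OC 1 to 6 in red. Null BMM 2, 3 and 4 are high in both percentages, and null OC 6 is high for the osteoblast and stroma list at 320 CPM.

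The change with RANK-L in null cells was small in number and size. Of 11952 genes tested with edgeR, 236 (1.97%) passed an adjusted p of 0.05 in null OC against null BMM: 159 were higher in null OC (1.33%) and 77 were lower (0.644%). Their median absolute log2 fold change was 0.51, against 0.17 over all genes tested, and 13 of them reached 1. The same test called 8557 of 12058 genes (71%) in WT OC against WT BMM, 4281 higher (35.5%) and 4276 lower (35.5%). The 6 null OC values lay all above or all below the 6 null BMM values for 278 genes (2.33%), 159 above and 119 below. Many more null genes were near the threshold: 849 had an adjusted p under 0.1, 2596 (21.7%) an unadjusted p under 0.05, and 164 of the 236 calls an adjusted p from 0.03 to 0.05.

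Leaving out null OC 6 moved the count of calls by less than leaving out any other library except null BMM 5. Without null OC 6, 195 of 12047 genes passed (1.62%), 112 higher (0.93%) and 83 lower (0.689%). Of the 236 genes, 147 passed with and without null OC 6 (96 higher and 51 lower), 89 passed only with it, and 48 others passed only without it. All 236 kept their direction without null OC 6, and the median ratio of the log2 fold change without it to that with it was 0.98. Other libraries moved the count more. It was 16 without null BMM 3, 24 without null BMM 4, 47 without null BMM 2, 25 without null OC 2, 36 without null OC 3, 42 without null OC 4 and 141 without null OC 1, and it was 428, 425 and 351 without null BMM 1, null BMM 6 and null OC 5. With null BMM 2, 3 and 4 left out together, a choice made after seeing the data, 1 gene passed (Marco). All 236 genes kept their direction there, 231 had an unadjusted p under 0.05, and the median ratio of log2 fold changes was 0.78. The 236 were called with the remaining libraries included, here and without null OC 6, so kept direction and small p values are largely fixed by that choice. In this fit 1125 genes had an unadjusted p under 0.05, with only null BMM 1, 5 and 6 left in their group. With null OC 6 left out as well, 4 genes passed: Ctsk, Acp5, Atp10a and Marco. The part of the mitochondrial and ribosomal differences of null BMM 2, 3 and 4 in the other calls was not tested.

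**Figure D2:**
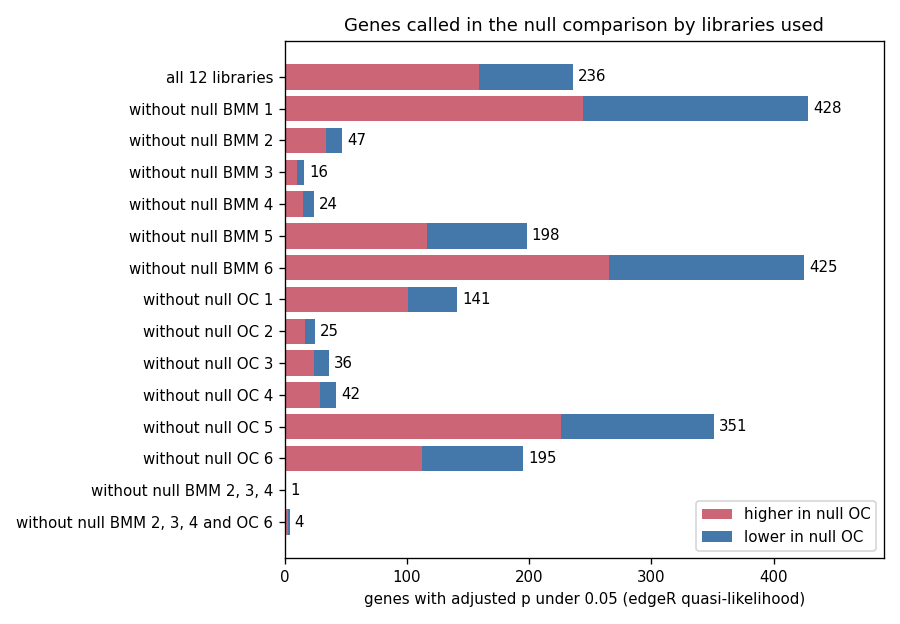
Stacked bars give the number of genes with an adjusted p under 0.05 higher (red) and lower (blue) in null OC, for all 12 null libraries, for each library left out, and for 2 sets left out together. The total is 236 with all libraries and 195 without null OC 6, and it drops to 16 without null BMM 3.

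15 genes passed with all 12 libraries and in each of the 12 fits that left out 1 library. Of these, 14 are reported. The higher ones were Ctsk, Acp5, Itgb3, Ccr1, Il1rn, L1cam, Ass1 and Slc25a22, and the lower ones were Marco, Nupr1, Aif1, Saa3, Ctla2a and Sub1. They are described within their groups below, alongside genes that passed in fewer of these fits.

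Ctsk, a gene of bone breakdown, had the largest log2 fold change of the named genes. It encodes cathepsin K, the protease that cuts bone collagen (chromosome 3, 95499256 to 95509362, GRCm38). In null BMM its level was 2.66 CPM at the lowest, 3.92 at the median and 5.53 at the highest, and in null OC it was 36.6, 55.6 and 222, the highest being null OC 6. All 6 null OC libraries lay above all null BMM libraries. The log2 fold change was 4.35 ± 0.48 (SE, n = 6 per group, adjusted p = 0.00405), a 20.3-fold rise, and without null OC 6 it was 3.71 (adjusted p = 4.26e-09), a 13.1-fold rise. The null OC mean was 0.585% of the WT OC mean, or 0.378% without null OC 6. WT OC ranged from 12995 to 14400 CPM. Without null BMM 2, 3 and 4, Ctsk stood at 4.65 (adjusted p = 0.302), and with null OC 6 left out as well at 4.03 (adjusted p = 3.4e-08).

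Acp5 encodes the tartrate-resistant acid phosphatase used to stain osteoclasts (chromosome 9, 22126727 to 22135711). Its lowest, median and highest levels were 34.6, 38.7 and 43.3 CPM in null BMM and 64.1, 88.5 and 165 CPM in null OC, with null OC 6 again highest and no overlap. The log2 fold change was 1.31 ± 0.18 (adjusted p = 0.0102), and 1.08 without null OC 6 (adjusted p = 0.000135). WT BMM held less Acp5 than null BMM, with a median of 8.27 CPM, and WT OC had a median of 6999 CPM. Without null BMM 2, 3 and 4 the log2 fold change was 1.26 (adjusted p = 0.305), and with null OC 6 left out as well 1.04 (adjusted p = 0.0055). The 3 listed start sites of Acp5 had between 1 and 2 NFAT matches each in their windows, and 1 of the 3 had a MITF match.

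Mmp9, a gelatinase secreted by osteoclasts, ranged from 157 to 227 CPM in null BMM (median 184) and from 201 to 321 CPM in null OC (median 259). The groups overlapped, and the log2 fold change was 0.50 ± 0.11 (adjusted p = 0.0317, and 0.0436 without null OC 6). In WT BMM the Mmp9 median was 0.328 CPM and in WT OC 6721 CPM. Slc4a2, the bicarbonate exchanger that balances acid secretion, went from a median of 37.9 CPM (30.2 to 41.3) to 49.0 CPM (44.4 to 57.4) with no overlap (log2 fold change 0.43 ± 0.09, adjusted p = 0.0347). With an offset for each gene's average effective length, Slc4a2 stood at 0.20 (adjusted p = 0.401). Mmp9 passed in 6 and Slc4a2 in 5 of the 12 fits that left out 1 library.

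Of the 19 resorption genes, 16 were tested in null cells, 4 were called higher and 0 lower, with a median log2 fold change of 0.23. The shares over all genes tested were 1.33% higher and 0.644% lower. Without null OC 6, 5 were higher, the additional one being the proton pump subunit Atp6v0a1 (0.47, adjusted p = 0.0413). In WT, 18 of 19 were higher and the median was 2.72. With all 12 libraries Atp6v0a1 was at 0.42 (adjusted p = 0.0505), the proton pump subunit Tcirg1 at 0.21 (adjusted p = 0.129) and the chloride exchanger Clcn7 at 0.29 (adjusted p = 0.0503). Snx10, a sorting nexin needed for resorption, was at -0.01 (adjusted p = 0.965), and the sugar-phosphate transporter Slc37a2 at 0.21 (adjusted p = 0.171). 3 of the 19 had too few counts to test. Calcr, the calcitonin receptor, had 0 counts in all 12 null libraries and 601 to 778 counts in each WT OC library. Car2, the carbonic anhydrase of osteoclasts, had at most 26 counts in a null OC library, against 4222 to 5317 in WT OC. Rufy4 had 2 counts over the 6 null BMM libraries and 87 over the 6 null OC libraries.

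**Figure D3:**
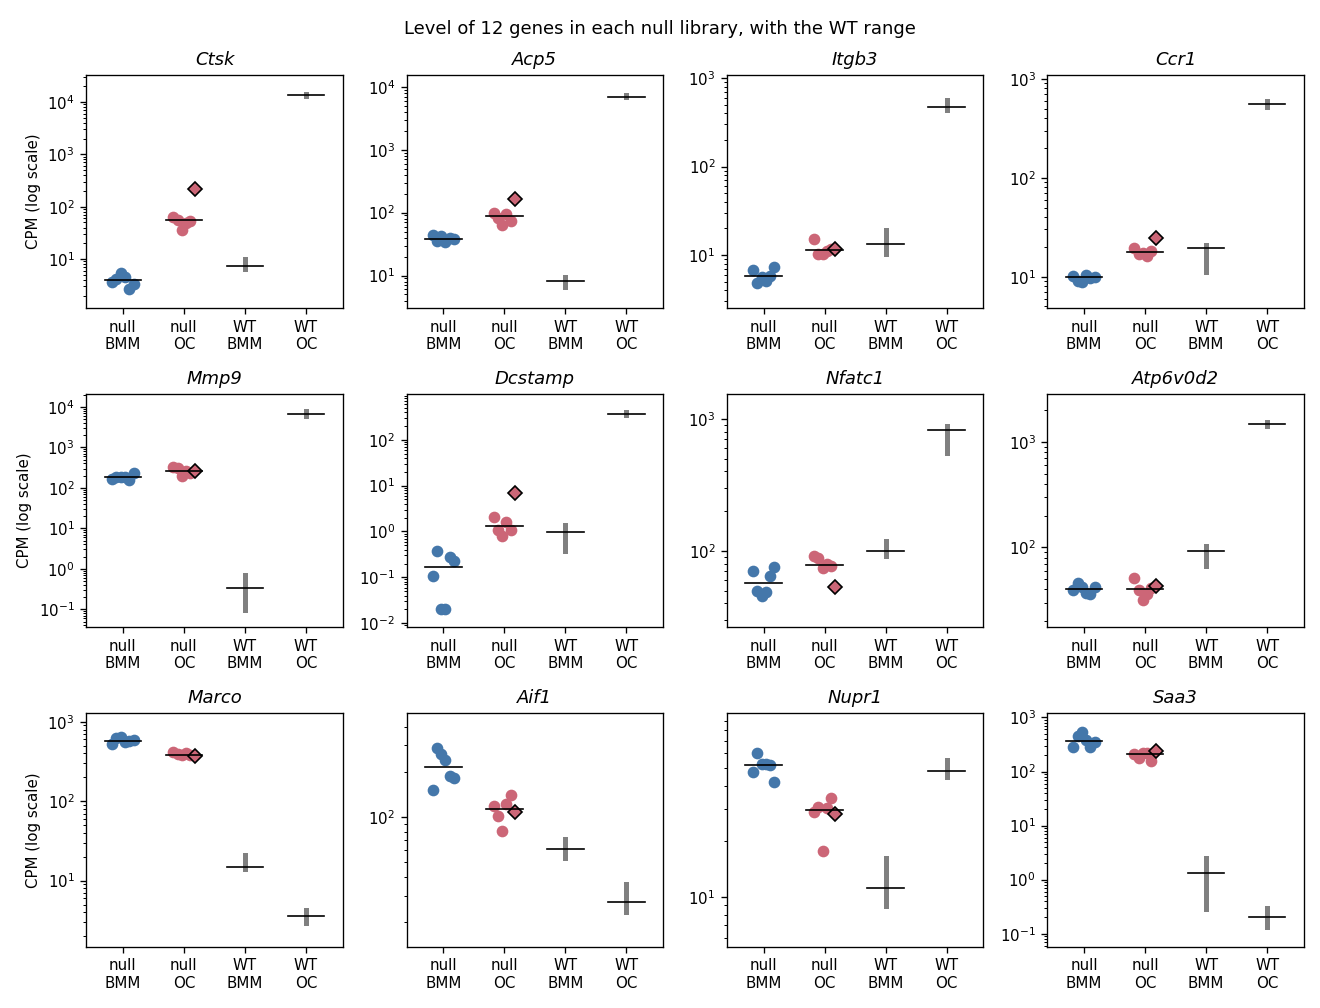
Each panel gives a gene's CPM on a log axis: dots are single null BMM (blue) and null OC (red) libraries, the diamond is null OC 6, black lines are medians, and grey bars span the 6 WT libraries of a group. A value of 0 is drawn at 0.02 CPM. Ctsk and Acp5 rise in null OC and stay far under the WT OC bars, while Marco, Aif1, Nupr1 and Saa3 lie lower in null OC than in null BMM.

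Among genes of cell fusion, Dcstamp, a membrane protein that macrophages need to fuse, rose from a very low level. It had 0 to 7 counts in null BMM libraries (median 0.167 CPM) and 11 to 91 counts in null OC libraries (lowest 0.793, median 1.33, highest 6.86 CPM, in null OC 6), with no overlap. The log2 fold change was 3.72 ± 0.71 (adjusted p = 0.0215), and 2.98 without null OC 6 (adjusted p = 0.0317). The null OC mean was 0.598% of that in WT OC. Ocstamp, its partner in fusion, did not pass: null OC 6 held 11.4 CPM while the null OC median was 1.39, and null BMM ranged from 0.335 to 0.958 CPM (log2 fold change 2.13, adjusted p = 0.0931; 0.88 without null OC 6, adjusted p = 0.176). Adam8, a membrane protease, rose from a median of 857 to 1128 CPM (log2 fold change 0.41 ± 0.09, adjusted p = 0.0317), and in WT it fell by 1.48 on the log2 scale. Atp6v0d2, a pump subunit linked to fusion, had medians of 40.6 and 40.1 CPM (log2 fold change 0.00, adjusted p = 0.987). Of the 12 fusion genes tested, 2 were called higher and 0 lower, also without null OC 6, and the list median was 0.24, against 0.64 in WT. With all 12 libraries, 1.33% of all genes tested were called higher. Oscar, a receptor that costimulates osteoclast formation and was too low to test, had 5 counts over the 6 null BMM libraries and 7 to 45 counts in each null OC library, and 6204 to 7584 in each WT OC library.

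Among attachment genes, Itgb3 rose clearly. It encodes the beta chain of the vitronectin receptor, with which osteoclasts hold on to bone (chromosome 11, 104608000 to 104670476). Its lowest, median and highest levels were 4.79, 5.75 and 7.24 CPM in null BMM and 10.2, 11.4 and 15.01 CPM in null OC, where the highest was null OC 1. The log2 fold change was 0.98 ± 0.15 (adjusted p = 0.0116) and the same to 2 decimals without null OC 6 (adjusted p = 0.017). WT OC had a median of 477 CPM. Talin (Tln1), which links integrins to actin, had overlapping groups and a log2 fold change of 0.38 (adjusted p = 0.0347), which was 0.03 (adjusted p = 0.934) with an offset for average effective length. The kinase Pyk2 (Ptk2b) had 0.38 as well (adjusted p = 0.0371, and 0.055 without null OC 6). L1cam, a neural and immune adhesion molecule outside the list, went from 20.03 CPM (12.99 to 23.5) to 35.02 CPM (27 to 39.4; 0.84 ± 0.14, adjusted p = 0.014). Of the 15 podosome and integrin genes, 3 were called higher and 0 lower (2 higher without null OC 6), with a median of 0.18 against 0.32 in WT. The share called higher over all genes tested was 1.33%.

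Upstream, the receptors and most transcription factors of the pathway did not pass the test. Tnfrsf11a, which encodes RANK, had medians of 30.8 and 31.7 CPM (log2 fold change 0.02, adjusted p = 0.919), Traf6 had 16.7 and 17.6 CPM (0.12, adjusted p = 0.735), and Csf1r had 1849 and 1698 CPM (-0.05, adjusted p = 0.77). None of the 13 tested RANK and ITAM signalling genes was called, and the median was 0.02. Over all genes tested 1.97% were called, so 0 of 13 is near that share. Nfatc1 had 45.8, 56.9 and 75.6 CPM in null BMM and 53.3, 78.1 and 90.7 CPM in null OC, with null OC 6 the lowest of the null OC libraries. Its log2 fold change was 0.39 ± 0.14 (adjusted p = 0.129, and 0.0605 without null OC 6), and in WT it was 2.90. Fos had medians of 99.5 and 99.3 CPM (0.01, adjusted p = 0.959). Of the other AP-1 members listed, 2 passed. Jun rose from a median of 227 to 286 CPM with no overlap (0.38 ± 0.08, adjusted p = 0.0243), and Fosl1 from 3.52 to 7.81 CPM with overlap (1.39 ± 0.34, adjusted p = 0.0484, and 0.0675 without null OC 6). They passed in 6 and 3 of the 12 fits that left out 1 library. Fosl2 (0.33, adjusted p = 0.0687), Junb (0.10, adjusted p = 0.633), Jdp2 (-0.13, adjusted p = 0.884) and Batf3 (0.06, adjusted p = 0.946) did not pass. Jun fell by 0.37 on the log2 scale in WT. Of 15 osteoclast transcription factors tested, 2 were higher and 0 lower in null cells (1 higher without null OC 6), with a median of 0.10. In WT 14 of 16 were higher, with a median of 1.84.

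The repressors of osteoclast formation showed 0 calls in either direction among 10 tested genes (median 0.05), which is near the 1.97% called over all genes. In WT 7 of the 10 were lower and 2 higher, Cyld (0.48) and Id3 (0.38), with a median of -0.84. Irf8 had medians of 198 and 201 CPM (log2 fold change 0.12, adjusted p = 0.455) and fell by 3.04 in WT. Id1 ranged from 5.64 to 12.1 CPM in null BMM and from 8.03 to 41.1 CPM in null OC, highest in null OC 3 and null OC 6, and did not pass (1.18 ± 0.41, adjusted p = 0.126).

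Ccr1, a receptor for inflammatory chemokines that osteoclasts and their precursors carry (chromosome 9, 123962124 to 123968692), shared with Ctsk the smallest adjusted p of the higher genes. It held 8.89, 9.83 and 10.3 CPM in null BMM and 16.3, 17.7 and 24.3 CPM in null OC, highest in null OC 6 and with no overlap. The log2 fold change was 0.95 ± 0.12 (adjusted p = 0.00405), and 0.86 without null OC 6 (adjusted p = 0.002). WT OC had a median of 556 CPM. Il1rn, the natural antagonist of interleukin-1, went from a median of 40.5 CPM (38.9 to 49.1) to 63.0 CPM (55.7 to 86.6), a log2 fold change of 0.71 ± 0.12 (adjusted p = 0.014). WT OC had a median of 64.4 CPM of Il1rn, so the null OC mean was 103% of the WT OC mean.

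The chemokine and cytokine list had 3 genes called higher (Il1rn, Ccl12 and Nos2) and 1 lower (Saa3) among 25 tested, also without null OC 6. Among all genes tested, 1.33% were called higher and 0.644% lower. Ccl12, a monocyte attractant, went from a median of 13.02 CPM to 27.5 CPM, with null OC 1 inside the null BMM range (1.05 ± 0.19, adjusted p = 0.0166). Nos2, the inducible nitric oxide synthase, rose from 0.403 to 1.78 CPM at the median (2.31 ± 0.45, adjusted p = 0.0215), at most 72 counts in a library. The related chemokines Ccl2 and Ccl7 did not pass (1.05, adjusted p = 0.0838, and 1.44, adjusted p = 0.0517), and their values in null OC were uneven: Ccl7 had 148 CPM in null OC 1, and 646 and 512 CPM in null OC 3 and 6. Ccl2, Ccl7 and Ccl12 are near neighbours in sequence, so their estimated counts carry some uncertainty. Il1b and Acod1, both of macrophage activation, had log2 fold changes of 0.19 (adjusted p = 0.757) and 0.09 (adjusted p = 0.664). The list median was 0.26, and in WT it was -0.87.

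Marco fell with the smallest adjusted p of all genes. It encodes a scavenger receptor by which macrophages take up bacteria and particles (chromosome 1, 120474538 to 120505024). Null BMM held 522, 581 and 654 CPM and null OC 375, 387 and 421 CPM, with no overlap. The log2 fold change was -0.58 ± 0.07 (adjusted p = 0.00151), a 1.49-fold lower level, and -0.57 without null OC 6 (adjusted p = 0.002). It was -0.51 without null BMM 2, 3 and 4 (adjusted p = 0.048). WT BMM and WT OC had medians of 14.96 and 3.55 CPM, so the null OC cultures still held far more Marco than either WT group.

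The other firm falls were of mixed function. Aif1 (Iba1), an actin-binding protein of macrophages, went from 151, 214 and 289 CPM in null BMM to 80.7, 114 and 141 CPM in null OC (-0.97 ± 0.16, adjusted p = 0.014). Its 3 highest values were null BMM 2, 3 and 4, and without those 3 libraries the log2 fold change was -0.63 (adjusted p = 0.305). Nupr1, a small stress-response nuclear protein, went from 41.8, 52.1 and 60.01 CPM to 17.7, 29.5 and 34.2 CPM (-0.85 ± 0.13, adjusted p = 0.0107). Saa3, an acute-phase protein made by macrophages, went from 283, 365 and 528 CPM to 159, 215 and 241 CPM (-0.89 ± 0.15, adjusted p = 0.0166). Its 3 highest values were also null BMM 2, 3 and 4, without which it stood at -0.58 (adjusted p = 0.302). Ctla2a, a cysteine protease inhibitor, went from a median of 15.4 CPM (11.9 to 18.9) to 8.29 CPM (6.63 to 10.6; -0.88 ± 0.15, adjusted p = 0.0142). Sub1, a transcription coactivator, went from 166 to 114 CPM at the median (-0.51 ± 0.09, adjusted p = 0.0146). None of these 6 falling genes, Marco included, had overlapping groups, but that was a condition for naming them. Of 11952 genes tested, 119 lay all below in null OC.

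Further genes complete the largest changes in each direction, all without overlap between groups, as the naming rule required. Atp10a, a phospholipid flippase, held 0.962, 1.87 and 4.60 CPM in null BMM and 5.06, 6.23 and 7.47 CPM in null OC (1.503 ± 0.30, adjusted p = 0.0233), and it was not called in WT (0.17). Crybg1 (0.95), the endocannabinoid-making lipase Dagla (0.91) and the pyrimidine synthesis enzyme Cad (0.88) were higher, with adjusted p values of 0.0345, 0.0243 and 0.0347. Eef1akmt3 (-0.84), the phosphatase Ptpn18 (-0.72), the G protein subunit Gngt2 (-0.68), Snhg11 (-0.66) and Cir1 (-0.66) were lower.

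Macrophage markers were mostly negative and mostly not called. Of 23 tested, 19 had a negative log2 fold change, 10 had an unadjusted p under 0.05, and 2 were called lower (Marco and P2ry12) and 1 higher (the scavenger receptor Msr1, 0.38, adjusted p = 0.0471, and 0.0554 without null OC 6). Over all genes tested 1.33% were called higher and 0.644% lower, with a median log2 fold change of -0.006. The list median was -0.22, against -2.78 in WT, where 23 of 24 were lower and 1 higher. P2ry12, a receptor for extracellular ADP, fell from a median of 19.1 CPM (16.8 to 22.1) to 12.01 CPM (5.70 to 14.8; -0.72 ± 0.18, adjusted p = 0.0484). Summed over the list, null OC held 53554 to 65488 CPM and null BMM 58269 to 67741 CPM, and WT OC had a median of 14349 CPM. Adgre1 (F4/80) had medians of 7451 and 6919 CPM (-0.16, adjusted p = 0.378). Fcrls, a receptor of resident macrophages, had its lowest null OC values in null OC 3 and 6 (49.9 and 63.9 CPM, against a null OC median of 157 and 183 to 325 CPM in null BMM) and did not pass (-0.98 ± 0.31, adjusted p = 0.106). Gpr34 (-1.37, adjusted p = 0.0835), the complement gene C1qa (-0.49, adjusted p = 0.0528) and Selenop (-0.47, adjusted p = 0.106) did not pass either. Slco2b1, too low to test, had means of 1.06 and 0.137 CPM.

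Growth and metabolism genes made up several of the smaller rises. Over all genes tested 1.33% were called higher, and the median log2 fold change was -0.006. All 25 cell cycle genes had a positive log2 fold change, 6 of them called (4 without null OC 6), with a median of 0.31, against 0.52 in WT. The replication helicase subunits Mcm3 (0.40 ± 0.07, adjusted p = 0.0185) and Mcm6 (0.39, adjusted p = 0.0295), the cyclin Ccnd1 (0.39, adjusted p = 0.0317) and the mitotic kinase Plk1 (0.52, adjusted p = 0.0317) were among them. Mki67, the usual mark of dividing cells, was not (0.23, adjusted p = 0.188). Myc, named after its values were seen, went from a median of 24.8 CPM to 46.8 CPM (0.78 ± 0.14, adjusted p = 0.0185), and its null BMM 1 value of 39.4 CPM lay inside the null OC range. Hmga1, also named after its values were seen, went from 166 to 253 CPM (0.71 ± 0.13, adjusted p = 0.0166). Of 20 glycolysis and hypoxia genes, 4 were higher (2 without null OC 6): the lactate exporter Slc16a3 (0.40, adjusted p = 0.0215), Pgam1 (0.32, adjusted p = 0.0387), Hk1 (0.38, adjusted p = 0.0404) and Pfkp (0.40, adjusted p = 0.0431). Ass1, the enzyme that makes argininosuccinate from citrulline, went from a median of 425 CPM (377 to 446) to 608 CPM (477 to 680; 0.51 ± 0.08, adjusted p = 0.014). Slc25a22, a mitochondrial glutamate carrier, went from 35.9 to 52.1 CPM (0.58 ± 0.09, adjusted p = 0.014). With null BMM 2, 3 and 4 left out, none of these genes passed.

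Other lists had few or no calls in null cells. With 1.97% called over all genes tested, 0 calls in lists of this size is near the general share. Oxidative phosphorylation had 0 of 22 nuclear genes called (1 lower without null OC 6) and a median of -0.12, where WT had 22 of 22 higher and 1.19. The 9 mitochondrially encoded genes all had negative log2 fold changes with an unadjusted p under 0.05, 0 of them called, with a median of -0.41. Mt-Co1 had 2044 to 3564 CPM in null BMM, highest in null BMM 2, 3 and 4, and 1802 to 2272 CPM in null OC (adjusted p = 0.067). MHC class II genes, which present antigen, had 0 of 9 called and a median of -0.27. In WT 5 were higher and 4 lower (H2-DMa, H2-DMb1, H2-DMb2 and H2-Ob), with a median of 2.88. Cd74, their invariant chain, had medians of 46.9 and 48.7 CPM in null cells (adjusted p = 0.757) and rose by 4.09 in WT. NF-kB genes had 0 of 15 called (1 higher without null OC 6) and a median of -0.03, with the inhibitor Nfkbia at -0.40 (adjusted p = 0.0564) in null and 2.66 in WT. Interferon-stimulated, cholesterol synthesis, NRF2 redox and lysosome genes had 0 calls in null cells among 23, 20, 12 and 20 tested.

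**Figure D4:**
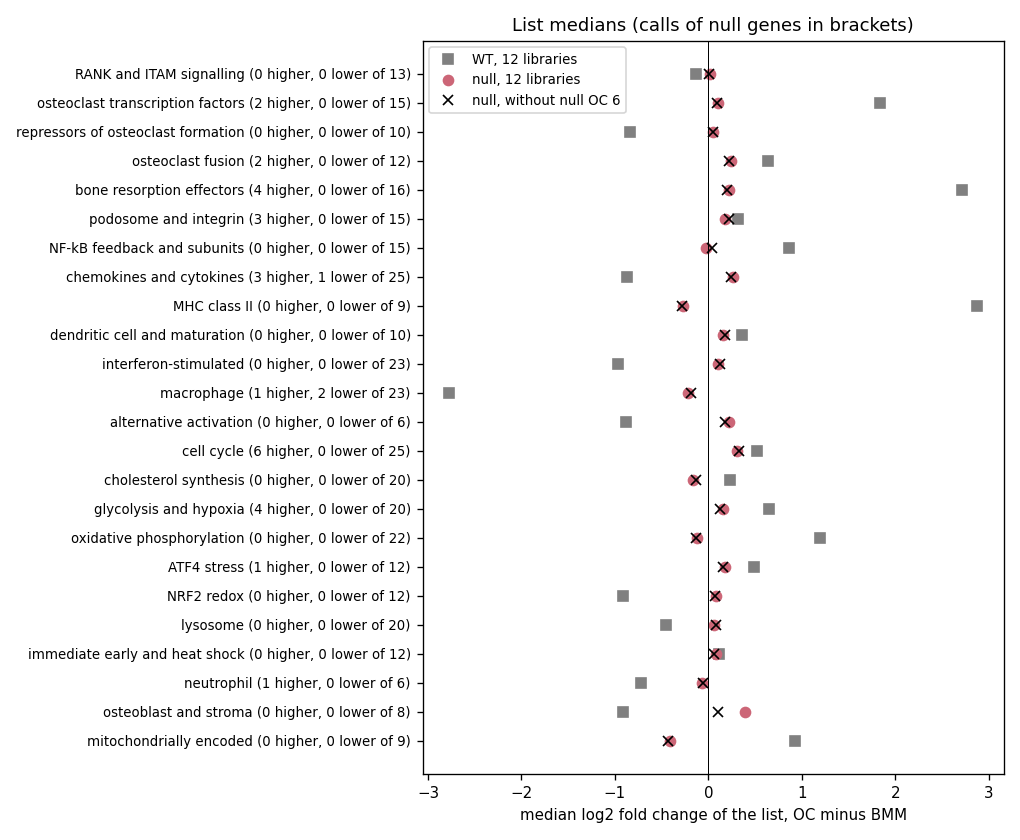
Points give the median log2 fold change, OC minus BMM, of each gene list with at least 6 members tested, for null cells with all 12 libraries (red), null cells without null OC 6 (crosses) and WT (grey squares); brackets give the null calls. Null medians lie between -0.41 and 0.39, while WT medians reach -2.78 for the macrophage list and 2.88 for MHC class II. Among all genes tested in null cells, 1.33% were called higher and 0.644% lower.

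Markers of other cells were checked in the same way. Of the 16 neutrophil genes 6 were tested and 1 was called higher, Mmp8 (medians 211 and 261 CPM, 0.29, adjusted p = 0.0434). The list summed to 745 to 834 CPM in null BMM and 732 to 885 CPM in null OC, nearly all of it Fpr1 (means 557.5 and 516.3 CPM) and Mmp8. The defining granule genes Ltf, Elane and Retnlg had 0 counts in all 12 null libraries, and S100a9, Ngp, Mpo, Prtn3 and Ly6g had at most 3 counts in any. S100a8 (means 10.7 and 6.88 CPM), Lcn2 (10.06 and 7.57 CPM) and Cxcr2 (2.93 and 2.87 CPM) were detected, and none of the 3 was called. The adipocyte list summed to 12.9 to 26.1 CPM and the lymphoid, mast and erythroid list to 1.64 to 4.81 CPM over the 12 libraries. Dendritic cell genes had 0 of 10 called, near the 1.97% called over all genes.

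The osteoblast and stroma list had 0 of 8 tested genes called, near the 1.97% called over all genes. Its median was 0.39 with null OC 6 and 0.10 without. Null OC 6 alone held Ibsp, bone sialoprotein, at 37.5 CPM, while the other 11 null libraries had at most 0.226 CPM. Col1a1 was at 182 CPM there and at 44.1 to 77.0 CPM in null OC 1 to 5, and Col3a1 at 25.02 CPM against 1.37 to 8.26. Sp7, Bglap, Lepr and Pdgfra had at most 3 counts in every null library. The same library was the highest of the 6 for Ctsk, Acp5, Ccr1, Dcstamp, Ocstamp and Oscar. Over 76 genes raised in WT OC to at least 50 CPM, null OC 6 was the highest null OC library for 25 and null OC 1 for 18. Other groups were as uneven: null BMM 1, without RANK-L, was highest of its group for 23, and WT OC 4 for 42. The median level of null OC 6 over the 76 was 7.40% of the WT OC level, near the 7.11% of null OC 3. The null BMM libraries, without RANK-L, already stood at 4.4% to 6.5%. In null BMM, 24 of the 76 were under 2% of the WT OC level. For these 24, null OC 6 exceeded the mean of null OC 1 to 5 by a median of 1.22% of that level (quartiles 0.423% and 1.79%). It was the highest null OC library for 17 of the 24. Outside the 24, some genes were lower in null OC 6, such as Mmp14 and Met, and some higher, such as Sdc1. Whether the stroma and the osteoclast genes of null OC 6 share a source was not tested.

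Beside the WT response, the null response was mostly smaller and partly of another direction. Both are given here with their own controls. Of the 236 null calls, 124 were called in the same direction in WT (52.5% of the null calls, 1.45% of the WT calls), 65 in the opposite direction, 42 were tested and not called in WT, and 5 were not tested there. Of the 372 genes that rose by a log2 fold change of at least 3 in WT, 172 were too low to test in null cells. Among the other 200, 13 were called higher and 0 lower in null cells, with a median null log2 fold change of 0.24. Of 96 tested genes that fell by at least 3 in WT, 5 were called lower and 2 higher in null cells. Across 11544 genes tested in both, Spearman's rho between the 2 log2 fold changes was 0.108, or 0.065 without null OC 6, and genes are not independent replicates. The difference between the 2 responses itself, tested as an interaction over 24 libraries, passed for 6507 of 12671 genes (51.4%).

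Of the 124 same-direction genes, 88 changed less in null cells than in WT, the median ratio of log2 fold changes was 0.58, and the interaction passed for 64. Ctsk, Acp5, Itgb3 and Ccr1 rose in both genotypes, with interactions (null response minus WT response) of -6.46, -8.42, -4.07 and -4.03 and adjusted p values of 4.3e-10, 1.3e-19, 9.3e-16 and 2.4e-17. Aif1 fell by 0.97 in null cells and 1.13 in WT on the log2 scale, and its interaction did not pass (0.16 ± 0.19, adjusted p = 0.528). Il1rn rose by 0.71 and 1.29 (interaction -0.59, adjusted p = 0.0088). Mcm3 rose in null cells and was not called in WT (0.16, adjusted p = 0.268), and that interaction did not pass either (0.24, adjusted p = 0.151). Ctla2a, Ctla2b and the glutathione transferase Mgst1 fell in both, and less in null cells (interactions 2.25, 2.62 and 2.53).

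The interaction passed for all 65 opposite-direction genes, which the choice of genes called in opposite directions largely fixes. Null cells raised Angptl2, a secreted angiopoietin-like protein (medians 51.8 and 79.5 CPM, log2 fold change 0.64 ± 0.11, adjusted p = 0.0166), Atp2a3, a calcium pump of the endoplasmic reticulum (32.1 and 55.5 CPM, 0.70 ± 0.12, adjusted p = 0.0166), Hip1 (0.56, adjusted p = 0.0243) and the membrane protein Plxdc1 (0.36, adjusted p = 0.0352). In WT these fell by 2.41, 2.34, 2.21 and 1.86 on the log2 scale. Epas1, the hypoxia factor HIF-2 alpha, rose from a median of 5.23 to 11.5 CPM in null cells (1.08 ± 0.22, adjusted p = 0.0263) and fell in WT, from a median of 88.9 to 20.5 CPM. Nupr1 and the lectin Clec4a2 fell in null cells and rose by 2.04 and 2.40 in WT. Nupr1 reached a median of 47.8 CPM in WT OC, near the null BMM median of 52.1 CPM. Fchsd2 and Tma16 likewise fell in null cells (-0.50 and -0.47) and rose in WT (1.26 and 0.58).

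**Figure D5:**
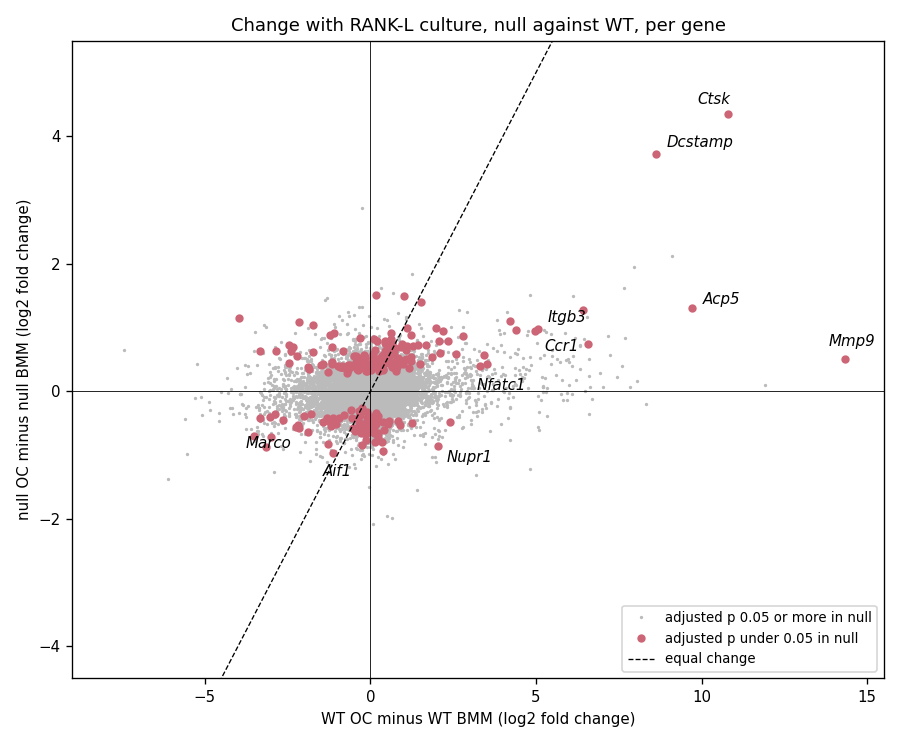
Each point is a gene tested in both genotypes, with its log2 fold change, OC minus BMM, in WT on the x axis and in null cells on the y axis; red points passed in null cells and the dashed line marks equal change. Ctsk stands at 10.8 in WT and 4.35 in null cells, and most genes with large WT changes lie near 0 in null cells.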

How the data were processed

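RNA was taken with a mirVana kit and libraries were made with an NEB low-input RNA kit, per the labels' protocols. The authors deposited 1 table per library with the estimated count, the effective length and the TPM (a length-normalized relative level, not used in the tests) of each Ensembl transcript, per the file headers. The submitters' processing notes name kallisto, DESeq2 and the build GRCh38 without versions; the transcript identifiers are mouse ones. Of 88198 transcripts, 86119 (97.6%) matched GENCODE M21 (GRCm38), and their estimated counts were summed to 30284 genes and rounded. Unmatched transcripts held 0.766% to 0.96% of counts.

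Genes were tested with edgeR 4.0.16 in R 4.3.3 (filterByExpr, TMM scaling, robust quasi-likelihood fit) with Benjamini-Hochberg adjustment over all genes tested and a threshold of 0.05. Null OC against null BMM and WT OC against WT BMM were fitted on 12 libraries each, and the interaction on all 24. The SE given with a log2 fold change is its absolute value divided by the square root of the test's F statistic. The code was tested on simulated data. Alternatives were DESeq2 1.42.0, limma 3.58.1 (voom with quality weights), RLE scaling, other filters, length offsets, all 24 libraries in 1 fit, a replicate block and each library left out. Leaving out null BMM 2, 3 and 4 together was added after seeing the data.

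No pairing of the null libraries by replicate number was seen, and no label ties them. BMM and OC libraries of the same number had correlated deviations of -0.407 to 0.172. Null BMM 2, 3 and 4 differ from null BMM 1, 5 and 6 (correlations -0.66 to -0.29), which could hide a pairing, so it was not excluded. The labels give no batch. Members, gene lists and the naming rule were chosen with earlier results of these data known. Genes named are the 10 largest changes and the 5 smallest p values in each direction, among protein-coding genes called with and without null OC 6, at 5 CPM or more and without overlap between groups; the 4 per direction shared with WT and the 4 opposite to it; the 8 genes highest in null OC 6 over the others; up to 4 called genes per list and direction; and a fixed set of pathway genes. A few results are not reported here. Genes outside the rule, such as Ass1, Fcrls, Ccl7, Id1 and the acid secretion genes, were chosen after their values were seen. Duplicate and near-identical genes (Ctla2a and Ctla2b, the Ccl chemokines, Saa3) can exchange reads in estimated counts.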

Additional observations from a re-analysis of the deposited data

Results flagged for a closer look

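Within each null group of 6, Dixon's test was applied to the named genes, at most 190 gene and group sets. Sets with a highest value under 1 CPM were left out. The osteoblast and stroma sum and the mitochondrial and ribosomal protein percents were tested too. Chance flags about 1 in 20 groups. The test marked 20 values, 15 of them in null OC 6. Of those 15, 8 are on genes named because they are highest in that library (Ibsp, Rcn3, Ocstamp, Gpc4, Col3a1, Grb10, Col5a1 and Cthrc1), so the choice of genes fixed them. The other 7 are not free of choice either. Col1a1 was named after its values were seen, and the osteoblast and stroma sum contains Col1a1, Ibsp, Col3a1 and Col5a1. Ctsk, Acp5 and Ccr1 were named partly for a rise that null OC 6 enlarges. All 7 lie in 1 library and are not independent, so they cannot be read against that rate. The marked values of null OC 6 among osteoclast genes were Ctsk at 222.2 CPM, Acp5 at 164.5, Ccr1 at 24.34, Ocstamp at 11.38, Dcstamp at 6.859 and Oscar at 3.392 CPM. Among genes of stroma and matrix they were Ibsp at 37.46 CPM, Col1a1 at 181.9, Col3a1 at 25.02, Col5a1 at 11.31 and Cthrc1 at 5.653 CPM, with the osteoblast and stroma sum at 320.5 CPM. Gpc4 at 7.235, Grb10 at 8.894 and Rcn3 at 6.783 CPM complete that library. Outside it, Itgb3 stood at 15.01 CPM in null OC 1, Atp10a at 4.6 in null BMM 4, Ccl12 at 15.41 and Cd74 at 38.0 in null BMM 1, and Slco2b1 at 2.657 CPM in null BMM 5.

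The null response differed from the WT response by the interaction test for 76 of 92 named genes, given as null minus WT on the log2 scale. Many were named for their response in one or both genotypes, so this share says nothing about genes in general. The 16 others were Cad, Aif1, Cir1, Gpc4, Col5a1, Fosl1, Nos2, Mcm3, Mcm6, Plk1, Slc16a3, Pfkp, Psat1, Calcr, Mki67 and Il1b. They did not pass, which does not show an equal response. Calcr rose by 12.32 in WT and had 0 counts in all null libraries, so its interaction (-12.28) cannot be judged by this test. Nos2, Il1b and Col5a1 were not tested in WT alone. The 8 genes named as opposite in the 2 genotypes were Nupr1 at -2.893, Plxdc1 at 2.214, Angptl2 at 3.04, Hip1 at 2.756, Atp2a3 at 3.038, Clec4a2 at -2.88, Fchsd2 at -1.764 and Tma16 at -1.052. A value below 0 marks a null log2 fold change below the WT one: a smaller rise, a larger fall or an opposite change. Snhg11, for example, fell more in null cells (-0.66) than in WT (-0.18). Values below 0 were Ctsk at -6.459, Acp5 at -8.416, Itgb3 at -4.073, Ccr1 at -4.026, Crybg1 at -1.238, Eef1akmt3 at -0.602, Ptpn18 at -0.938, Gngt2 at -0.538, Snhg11 at -0.487, Sub1 at -0.688, Ocstamp at -7.123, Grb10 at -3.752, Cthrc1 at -6.409, Dcstamp at -4.986, Slc4a2 at -3.109, Il1rn at -0.593, Pgam1 at -0.472, Hk1 at -0.294, Nfatc1 at -2.517, Fos at -2.144, Tnfrsf11a at -1.395, Traf6 at -0.873, Atp6v0d2 at -4.055, Snx10 at -2.731, Slc37a2 at -2.349, Cd74 at -4.031, Ass1 at -0.577, Hmga1 at -0.418, H2-Ab1 at -3.069, Nfkbia at -3.061, Tcirg1 at -1.028, Clcn7 at -0.942 and mt-Co1 at -1.044. Values above 0 were Atp10a at 1.327, Epas1 at 3.242, Dagla at 2.015, L1cam at 1.152, Ctla2a at 2.255, P2ry12 at 2.29, Slc25a22 at 0.489, Marco at 1.573, Ctla2b at 2.625, Mgst1 at 2.534, Col3a1 at 3.503, Jun at 0.739, Adam8 at 1.883, Tln1 at 0.277, Ptk2b at 1.217, Ccl12 at 2.756, Msr1 at 1.0, Ccnd1 at 1.371, Mmp8 at 1.003, Csf1r at 0.324, Irf8 at 3.164, Myc at 0.585, Fcrls at 4.568, Gpr34 at 4.784, Adgre1 at 0.784, Ccl2 at 1.748, Ccl7 at 2.792, Acod1 at 0.929, Id1 at 1.81 and Col1a1 at 1.326. For genes near 0 counts in at least 1 group, such as Dcstamp, Ocstamp, Grb10, Col3a1 and Cthrc1, the fitted value depends on the prior count and is no bound. Further such genes were Mmp9 at -13.838, Oscar at -9.657, Car2 at -10.934, Slco2b1 at 5.257 and Saa3 at 1.878.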

How the results depend on the processing

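The count of 236 called genes (159 higher, 77 lower) depended on the method and the libraries. DESeq2 called 967 (514 higher, 453 lower), limma-voom 853 (446, 407) and the fit of 24 libraries 1629 (858, 771), with 53.2%, 52.3% and 52.7% of calls higher against 67.4%. They called 232, 236 and 231 of the 236 in the same direction. An offset for average effective length gave 153 (104, 49), and one for the trend with gene length gave 324 (207, 117). With the first, 12 of the 57 named genes that passed no longer did: P2ry12, Fchsd2, Fosl1, Mmp9, Slc4a2, Tln1, Ptk2b, Msr1, Mcm3, Hk1, Psat1 and Mmp8. Left-out single libraries gave 16 to 428 (10 to 265 higher, 6 to 184 lower). Null BMM 2, 3 and 4 left out gave 1 (0 higher, 1 lower), and with null OC 6 out too 4 (3 higher, 1 lower). The replicate block gave 7 (4 higher: Acp5, Itgb3, Ccr1 and Ctsk; 3 lower: Marco, Nupr1 and Saa3), and 1 of 6 null libraries matched its own number best. RLE scaling and 2 other filters gave 200 to 233. WT alternatives gave 8502 to 8833 and interaction alternatives 5924 to 6995. The causes were not tested.

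Signs turned for genes that were not called. Without null BMM 2, 3 and 4 the log2 fold changes were -0.074 for Grb10, -0.032 for Cthrc1, -0.017 for Tnfrsf11a, -0.099 for Traf6, 0.045 for Atp6v0d2, 0.044 for Snx10 and -0.06 for Col1a1. With null OC 6 out too they were -0.735 for Gpc4, -0.681 for Col3a1, -1.039 for Grb10, -0.228 for Col5a1, -0.932 for Cthrc1, -0.007 for Traf6, 0.02 for Csf1r, 0.027 for Atp6v0d2, 0.019 for Snx10 and -0.436 for Col1a1. Limma-voom gave -0.661 for Gpc4, -0.06 for Col3a1, -0.718 for Grb10, -0.627 for Cthrc1 and 0.005 for Atp6v0d2. The replicate block gave -0.208 for Gpc4, -0.424 for Grb10 and -0.348 for Cthrc1. Length offsets gave -0.017 for Tnfrsf11a and 0.029 for Snx10. With single libraries left out the values ran from -0.749 to 0.642 for Gpc4, -0.284 to 0.785 for Col3a1, -0.745 to 0.488 for Grb10 and -0.659 to 0.457 for Cthrc1, each lowest without null OC 6, and from -0.052 to 0.066 for Fos, -0.011 to 0.061 for Tnfrsf11a, -0.077 to 0.049 for Atp6v0d2 and -0.036 to 0.012 for Snx10. Counts near 0 limit Dcstamp, Oscar, Car2 and Rufy4.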
